A study of Rattus norvegicus with 36 samples.

Results

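miR-126 is the best known miRNA of endothelial cells, which line blood vessels. Its hairpin lies in an intron of Egfl7, a gene of an endothelial secreted protein, and both arms of the hairpin are released as mature miRNAs. In mouse and human cells the 3p arm represses Spred1 and Pik3r2, inhibitors of signalling downstream of VEGF, and the 5p arm represses Dlk1, an inhibitor of endothelial proliferation. Platelets and some haematopoietic cells also hold miR-126, and lung endothelium is a known target of radiation injury. The 2 arms were taken from the count table by name, rno-miR-126a-3p and rno-miR-126a-5p, and are 2 of its 947 entries and of its 458 known rat miRNAs.

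Small RNA libraries were made from the lung and whole blood of female WAG/RijCmcr rats, whose whole thorax received 15 Gy of X-rays once, at 9 to 10 weeks of age. Irradiated groups (15 Gy) were taken at 1, 2, 3 and 4 weeks, and age-matched rats without radiation (0 Gy) at the 4 week and the 1 week time points. Each of the 6 groups had 3 libraries per tissue, 18 in each and 36 in all. The study's methods state that a library pooled RNA of 3 rats, whereas the design text of the labels gives 3 rats per group, so the p-values measure the spread between libraries. The field held the lungs and heart, and the blood was drawn from the heart. No cells were sorted, and fewer endothelial cells and less miR-126 per cell cannot be told apart in such libraries.

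Lung libraries held 8132 to 3807051 counts (median 1269431.5) and blood libraries 1156407 to 2340177 (median 1890243). In 2 lung libraries the depth was below 0.1 of the lung median: 15 Gy 3 weeks replicate 3 with 8132 counts, and 0 Gy 1 week replicate 3 with 11621. Red cell miRNAs (miR-486-5p, miR-451-5p, both miR-144 arms and miR-16-5p, 5 of 5 listed) took 0.997 to 48.5% of lung counts and 86.2 to 96.1% of blood counts. The 48.5% was in the 15 Gy 3 week library of 8132 counts, where miR-486-5p alone took 48.1%. In every other lung library the red cell share was at most 5.88%. All 9 miRNAs of a lung epithelium list (miR-200 family, miR-141-3p, miR-375-3p, miR-34b/c-5p and miR-449a-5p) were present in lung, where they made up 0.369 to 0.987% of counts, against 0.000546 to 0.00128% in blood. In the supplementary table of the study 2 blood libraries, 15 Gy 1 week replicate 2 and 0 Gy 1 week replicate 1, stand under each other's library number. The labels were followed here, and the exchange changed no result's side of the threshold.

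The mature sequences are shown because the arms differ in seed, the bases 2 to 8 that pair with targets. They are from RefSeq, build GRCr8, where 2 of 2 members were matched, and the seed is in capitals.
rno-miR-126a-5p: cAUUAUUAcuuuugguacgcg
rno-miR-126a-3p: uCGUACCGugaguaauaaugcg
rno-miR-126b: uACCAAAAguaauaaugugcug
The 5p arm (21 bases, 38.1% GC) lies at chr3:29813182-29813202 and the 3p arm (22 bases, 45.5% GC) at chr3:29813219-29813240, both on the plus strand and within the span of Egfl7, chr3:29802481-29814966. RefSeq lists their hairpin under the symbol Mir126b, and that of rno-miR-126b under Mir126a. Neither seed was shared with another of the 724 mature rat miRNAs in the RefSeq table (0 for each), so the arms are not members of a larger seed family there. rno-miR-126b comes from the opposite strand, at chr3:29813177-29813198, and its sequence is the reverse complement of the 5p arm over 17 bases. Whether reads were counted by strand is not given in the sources used here, so 5p counts could hold reads of this neighbour.

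Both arms were abundant in lung. Among the known rat miRNAs, miR-126a-3p ranked 13 to 26 in the 12 libraries after 15 Gy and 11 to 26 in the 6 libraries at 0 Gy, and miR-126a-5p ranked 7 to 18 after 15 Gy and 6 to 18 at 0 Gy. The 3p arm made up 0.411 ± 0.162% of lung counts after 15 Gy (SD, n = 12) and 0.661 ± 0.395% at 0 Gy (SD, n = 6). The 5p arm made up 1.04 ± 0.340% after 15 Gy (SD, n = 12) and 1.19 ± 0.650% at 0 Gy (SD, n = 6). The ranges of the ranks almost coincide between doses, and the differences between the mean shares are within 1 SD of the 0 Gy libraries.

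Levels are given as CPM, the share of a library's counts on a fixed scale, after TMM scaling, which sets libraries to a common centre over the entries tested. For miR-126a-3p, the arm that represses Spred1 and Pik3r2, the lung values of replicates 1 to 3 were 1988, 4157 and 3210 CPM at 15 Gy 1 week, and 7466, 5924 and 4955 CPM at 15 Gy 2 weeks. They were 5115, 4061 and 2654 CPM at 15 Gy 3 weeks, and 2562, 3965 and 3645 CPM at 15 Gy 4 weeks. At 0 Gy they were 9003, 3216 and 2286 CPM at 4 weeks, and 7930, 8932 and 3226 CPM at 1 week. The widest spread was thus within the unirradiated groups, each with values both above and below most of the irradiated libraries. The value of 3226 CPM rests on 60 counts and that of 2654 CPM on 19 counts, in the 2 libraries of very low depth.

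For miR-126a-5p the lung values of replicates 1 to 3 were 5304, 10678 and 10475 CPM at 15 Gy 1 week, and 8971, 11972 and 16165 CPM at 15 Gy 2 weeks. They were 8580, 14971 and 8801 CPM at 15 Gy 3 weeks, and 7856, 8273 and 14499 CPM at 15 Gy 4 weeks. At 0 Gy they were 18788, 8404 and 5749 CPM at 4 weeks, and 10685, 15023 and 5270 CPM at 1 week. The highest and the lowest 5p values of all lung libraries were both at 0 Gy, so every irradiated library lay between unirradiated ones. The 5p values of the libraries of very low depth rest on 63 counts (15 Gy 3 weeks) and 98 counts (0 Gy 1 week).

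**Figure D1:**
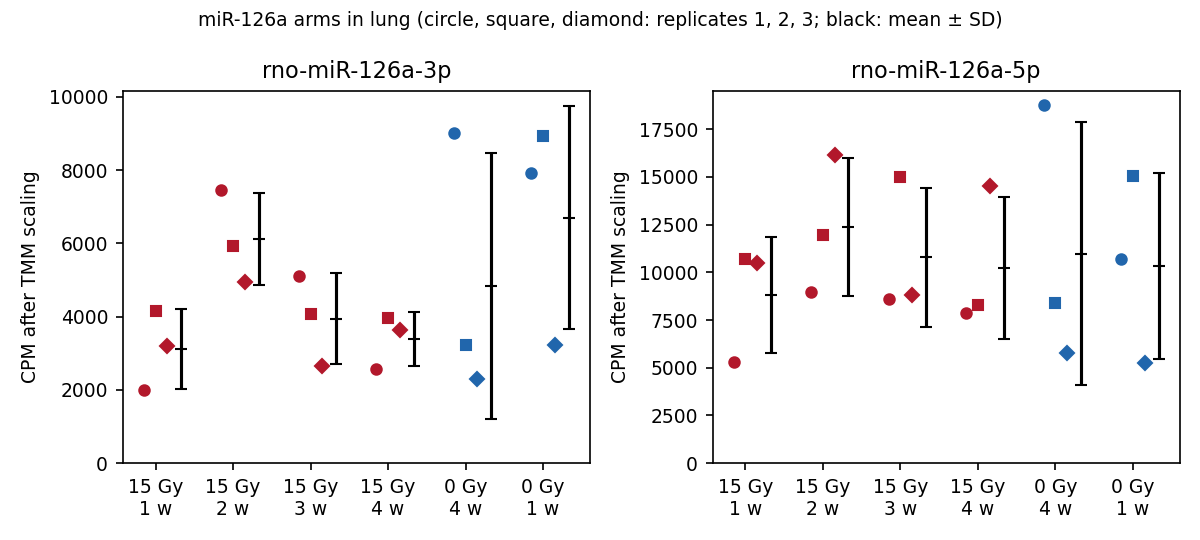
Levels of miR-126a-3p (left) and miR-126a-5p (right) in lung, in CPM after TMM scaling, by group (w, weeks; red, 15 Gy; blue, 0 Gy). Each symbol is a library and the black bars are mean ± SD (n = 3). For 3p the libraries at 15 Gy 1 week sit between 1988 and 4157 CPM and those at 0 Gy 1 week between 3226 and 8932, while for 5p every group's range overlaps the others.

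In the order of the group means, miR-126a-3p in lung was highest at 0 Gy 1 week (6696 ± 3046 CPM) and 15 Gy 2 weeks (6115 ± 1266 CPM), followed by 0 Gy 4 weeks (4835 ± 3640 CPM), 15 Gy 3 weeks (3943 ± 1234 CPM), 15 Gy 4 weeks (3391 ± 735 CPM) and 15 Gy 1 week (3118 ± 1088 CPM; SD, n = 3 each). The order of miR-126a-5p was different, with 15 Gy 2 weeks on top (12369 ± 3614 CPM), then 0 Gy 4 weeks (10980 ± 6891 CPM), 15 Gy 3 weeks (10784 ± 3628 CPM), 0 Gy 1 week (10326 ± 4887 CPM), 15 Gy 4 weeks (10209 ± 3721 CPM) and 15 Gy 1 week (8819 ± 3046 CPM; SD, n = 3 each). The ranges of neighbouring groups overlapped at every step of both orders, so no neighbours differed beyond their spread. Groups farther apart in the order did not all overlap. For 3p the 15 Gy 2 week libraries (4955 to 7466 CPM) lay above those of 15 Gy 1 week (1988 to 4157 CPM) and 15 Gy 4 weeks (2562 to 3965 CPM). The share of all entries with such gaps was not taken. Both arms were lowest at 15 Gy 1 week.

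Neither arm passed the test in any lung comparison by edgeR (adjusted p under 0.05, Benjamini-Hochberg over 499 entries), which called 0 entries (0%) in each. At an unadjusted p under 0.05 there were 10.4% of entries at 1 week, 5.21% at 2 weeks, 7.82% at 3 weeks and 9.62% at 4 weeks after 15 Gy, 7.21% between the 0 Gy groups and 9.02% over all libraries. DESeq2 called 1.21% at 1 week, 1.21% at 2 weeks, 0.806% at 3 weeks and 3.05% at 4 weeks, and 1.21% in both other comparisons. Comparisons at 1 and 2 weeks share the 0 Gy 1 week libraries, and those at 3 and 4 weeks the 0 Gy 4 week ones. The comparison nearest to a call was miR-126a-3p at 15 Gy 1 week against 0 Gy 1 week, with a log2 fold change of -1.11 (SE 0.52), an unadjusted p of 0.0495 and an adjusted p of 0.445. It had rank 52 by p among the 499 entries, of which 52 (10.4%) had an unadjusted p under 0.05, 20 of them lower (4.01%). DESeq2 called 6 of 496 entries (1.21%) at this time and gave miR-126a-3p a log2 fold change of -1.18 with an adjusted p of 0.954. The 2 groups overlapped through the 0 Gy library of very low depth. Without both libraries of very low depth the log2 fold change was -1.42 (edgeR adjusted p 0.194) and the groups no longer overlapped, as was then so for 21.2% of entries in this direction. Against the 0 Gy 4 week group in place of the 1 week group, it was -0.63.

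The changes of the 3p arm in lung at later times were smaller in size, but no test of the difference from the 1 week change passed. The change at 3 weeks minus that at 1 week was 0.82 (SE 0.72, edgeR adjusted p 0.597), and that at 4 weeks minus that at 1 week 0.59 (SE 0.72, edgeR adjusted p 0.708), both contrasts chosen after the data were seen, and the difference between 2 weeks and 1 week was not tested. The log2 fold change was -0.13 (SE 0.51) at 15 Gy 2 weeks against 0 Gy 1 week, -0.29 (SE 0.51) at 15 Gy 3 weeks and -0.51 (SE 0.51) at 15 Gy 4 weeks, both against 0 Gy 4 weeks, with edgeR adjusted p-values of 1, 0.980 and 0.790. Over all 15 Gy against all 0 Gy libraries it was -0.51 (SE 0.31, edgeR adjusted p 0.628), and between the unirradiated groups, 4 weeks against 1 week, -0.47 (SE 0.51, edgeR adjusted p 0.870). All of these fold changes rest in part on 1 control library. Without the 0 Gy 4 week library of 9003 CPM, the 3 and 4 week values of 3p turned to 0.47 and 0.35. The pooled value then became -0.11 and the difference between the control groups -1.28. Without 0 Gy 1 week replicate 3, with 60 counts of 3p, the 2 week value became -0.61 and the 1 week value -1.64.

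For miR-126a-5p the lung log2 fold changes after 15 Gy were -0.23 at 1 week, 0.26 at 2 weeks, -0.02 at 3 weeks and -0.11 at 4 weeks (SE 0.50 each), -0.03 over all 15 Gy against all 0 Gy libraries (SE 0.31), and 0.09 between 0 Gy 4 weeks and 0 Gy 1 week (SE 0.50). Their edgeR adjusted p-values ranged from 0.921 to 1. At 1 week the 95% interval was -1.31 to 0.85 for 5p and -2.21 to -0.003 for 3p (unadjusted, 3 libraries a group).

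**Figure D2:**
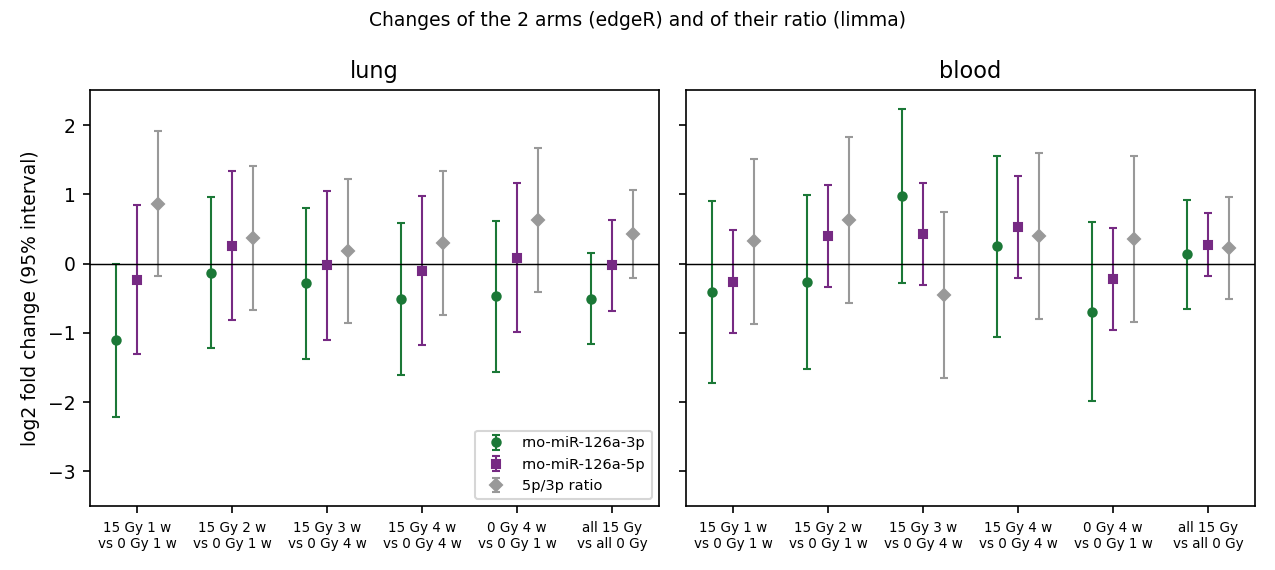
Log2 fold changes of miR-126a-3p and miR-126a-5p (edgeR) and of the ratio of 5p to 3p (limma, in blood with a mean count of at least 5 per arm) in lung (left) and blood (right), with 95% intervals, for each of the 4 times after 15 Gy, for 0 Gy 4 weeks against 0 Gy 1 week, and for all 15 Gy against all 0 Gy libraries. All intervals but that of 3p in lung at 1 week (-2.21 to -0.003, unadjusted) include 0.

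The 5p arm outnumbered the 3p arm in all 18 lung libraries. The ratio of 5p to 3p counts, which needs no scaling between libraries, was 2.67, 2.57 and 3.26 at 15 Gy 1 week, and 1.20, 2.02 and 3.26 at 15 Gy 2 weeks. It was 1.68, 3.69 and 3.32 at 15 Gy 3 weeks, and 3.07, 2.09 and 3.98 at 15 Gy 4 weeks. At 0 Gy it was 2.09, 2.61 and 2.52 at 4 weeks, and 1.35, 1.68 and 1.63 at 1 week. The 0 Gy 1 week group was uniformly low, with all 3 libraries below every library of 15 Gy 1 week and of 0 Gy 4 weeks, whereas 15 Gy 2 weeks and 15 Gy 3 weeks each held a library as low as the 0 Gy 1 week ones.

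Taken as a share of both arms, 5p made up 72.7% (95% Wilson interval 71.9 to 73.6), 72.0% (70.8 to 73.1) and 76.5% (76.0 to 77.1) at 15 Gy 1 week, against 57.4% (56.9 to 57.9), 62.7% (62.1 to 63.3) and 62.0% (54.3 to 69.2) at 0 Gy 1 week. These intervals cover counting error only, and the last is wide because it rests on 158 counts. No interval of one group met an interval of the other. Libraries of the same group also differed beyond counting error. Intervals did not meet for 57.4% and 62.7% at 0 Gy 1 week, nor for 72.0% and 76.5% at 15 Gy 1 week. The spread was wider at 15 Gy 2 weeks, where the libraries had 54.6% (54.0 to 55.2), 66.9% (66.1 to 67.7) and 76.5% (75.3 to 77.8).

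**Figure D3:**
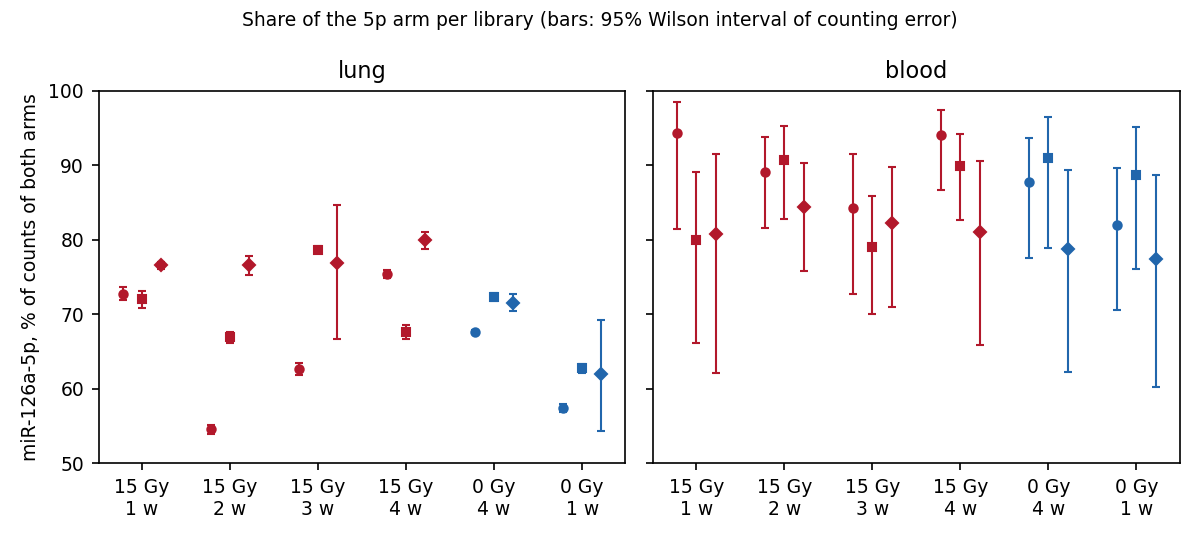
Share of miR-126a-5p in the counts of both arms, in percent, per library in lung (left) and blood (right), by group (w, weeks; red, 15 Gy; blue, 0 Gy; circle, square and diamond, replicates 1 to 3). Bars are 95% Wilson intervals of counting error, and the axis starts at 50. In lung, 15 Gy 1 week (72.0 to 76.5%) lies above 0 Gy 1 week (57.4 to 62.7%), and in blood all libraries lie between 77.4 and 94.3% with wide intervals.

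The change of the ratio at 1 week did not pass the test across arm pairs. Among 41 pairs of arms with a mean count of at least 10 per arm in lung, limma gave miR-126a a log2 ratio change of 0.87 (SE 0.50, p 0.0980, adjusted p 0.482) and the rank 6 by p. It called 0 of the 41 pairs (0%), with 3 (7.32%) at an unadjusted p under 0.05, miR-423 and miR-345 (higher 5p share) and let-7b (lower), which were named after their values were seen. The exact permutation test of 3 against 3 libraries gave its smallest possible p of 0.1 (two-sided). Groups that did not overlap, with the ratio higher after 15 Gy, were found for 4 of the 41 pairs (9.76%). Leaving out any single library kept the change between 0.76 and 0.93.

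The same comparison against the other control was smaller. With 0 Gy 4 weeks in place of 0 Gy 1 week, the change at 15 Gy 1 week was 0.24 on the log2 scale (limma adjusted p 0.966), and the control groups themselves differed by 0.63 (SE 0.50, limma adjusted p 0.742), 4 weeks being above 1 week without overlap, as in 4.88% of pairs. The log2 ratio after 15 Gy differed from its control by 0.37 at 2 weeks, 0.18 at 3 weeks and 0.30 at 4 weeks (SE 0.50 each, limma adjusted p 0.940, 0.792 and 0.828), and over all 15 Gy against all 0 Gy libraries by 0.43 (SE 0.30, limma adjusted p 0.751). Within groups the SD of the log2 ratio of miR-126a was 0.448, and only 1 of the 41 pairs had a smaller one (median 0.879), so its ratio was among the steadier of these pairs. The pairs were not matched in counts, and how far the abundance of the arms sets this SD was not tested. The 5p arm was the more abundant in 24 of the 41 pairs.

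Among the marker lists, only the 3 leukocyte miRNAs (both miR-142 arms and miR-223-3p) separated the same groups at 1 week. They summed to 0.00664 to 0.0156% of lung counts at 15 Gy 1 week and 0.0258 to 0.0278% at 0 Gy 1 week, with 0 of 3 called. The 0 Gy 1 week group held the library of 11621 counts, where such a share is only a few reads. Among single entries, by CPM after TMM scaling, 13 of 499 (2.61%) did not overlap in this direction. Without the libraries of very low depth it was 21.2%. The list is a sum of raw shares, so these backgrounds are not of the same measure. The leukocyte sum was 0.00612 to 0.0313% at 0 Gy 4 weeks. The 5 red cell miRNAs overlapped (2.89 to 5.75% at 15 Gy 1 week, 0.997 to 5.88% at 0 Gy 1 week), as did the 4 platelet-rich miRNAs (0.767 to 1.62% and 0.921 to 1.16%), and the 9 epithelial ones (0.558 to 0.886% and 0.809 to 0.918%). The 2 lymphocyte miRNAs also overlapped (0.0795 to 0.214% and 0.0947 to 0.240%), with 1 positive and 1 negative log2 fold change. So did the smooth muscle list (5.47 to 11.8% and 7.58 to 14.9%) and the muscle list (0.00523 to 0.00617% and 0 to 0.00632%). Their part in the ratio was not tested.

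The arms varied together in lung. Over the 18 lung libraries, log2 CPM of 3p and 5p correlated with Pearson's r = 0.673 (permutation p 0.0025) and Spearman's rho = 0.719 (permutation p 0.0011), and without the 2 libraries farthest from the median of 3p, r was 0.540. Both arms share the scaling factor of a library, which adds to such a correlation. It was the only relation between 2 measures tested across libraries.

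**Figure D4:**
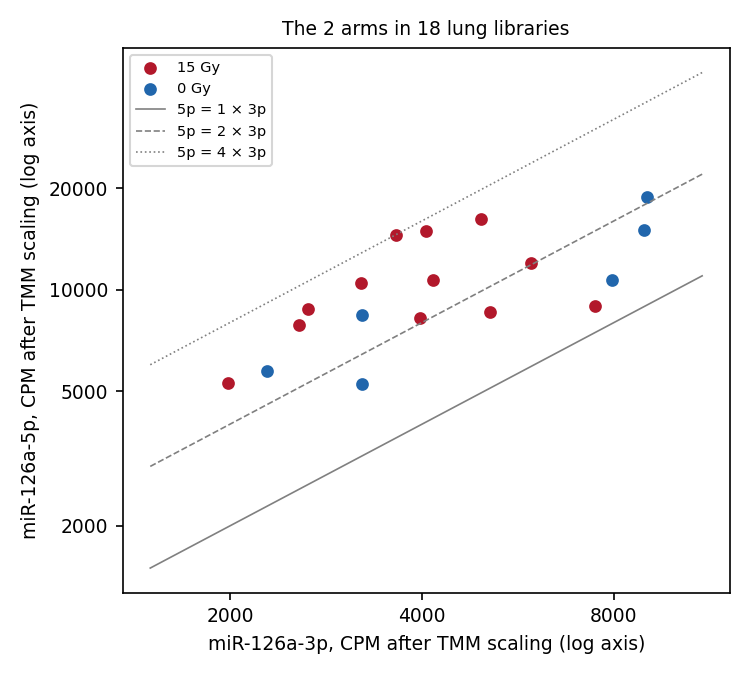
Levels of miR-126a-5p (vertical axis) against miR-126a-3p (horizontal axis) in the 18 lung libraries, in CPM after TMM scaling on log axes (red, 15 Gy; blue, 0 Gy). Lines mark equal levels, a ratio of 2 and a ratio of 4. All libraries lie above the line of equal levels, with ratios of 1.20 to 3.98.

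In whole blood both arms were scarce. Counts of miR-126a-3p in replicates 1 to 3 were 2, 9 and 5 at 15 Gy 1 week, 11, 8 and 15 at 15 Gy 2 weeks, 9, 21 and 11 at 15 Gy 3 weeks, and 5, 11 and 7 at 15 Gy 4 weeks, against 8, 4 and 7 at 0 Gy 4 weeks and 11, 5 and 7 at 0 Gy 1 week. Counts of miR-126a-5p were 33, 36 and 21 at 15 Gy 1 week, 90, 78 and 81 at 15 Gy 2 weeks, 48, 79 and 51 at 15 Gy 3 weeks, and 78, 97 and 30 at 15 Gy 4 weeks, against 57, 40 and 26 at 0 Gy 4 weeks and 50, 39 and 24 at 0 Gy 1 week. The 3p arm was never above 21 counts, and the raw counts of 5p were highest in libraries at 2 and 4 weeks after 15 Gy. Red cell miRNAs filled most of each blood library, so raw counts also move with that share.

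After TMM scaling, miR-126a-3p in blood was 1.03, 6.46 and 4.60 CPM at 15 Gy 1 week, 5.11, 3.10 and 4.85 CPM at 2 weeks, 6.06, 7.13 and 5.81 CPM at 3 weeks, and 2.38, 2.60 and 7.44 CPM at 4 weeks, against 4.51, 1.99 and 3.16 CPM at 0 Gy 4 weeks and 5.03, 3.10 and 8.03 CPM at 0 Gy 1 week. The 15 Gy 3 week libraries were all above the 0 Gy 4 week ones but within the range of 0 Gy 1 week, and such a gap was found for 12.8% of blood entries. Those of miR-126a-5p were 17.1, 25.8 and 19.3 CPM at 15 Gy 1 week, 41.8, 30.2 and 26.2 CPM at 2 weeks, 32.3, 26.8 and 26.9 CPM at 3 weeks, and 37.1, 23.0 and 31.9 CPM at 4 weeks, against 32.2, 19.9 and 11.7 CPM at 0 Gy 4 weeks and 22.8, 24.1 and 27.5 CPM at 0 Gy 1 week. As in lung, the highest mean of 5p was at 15 Gy 2 weeks (32.7 ± 8.10 CPM) and the lowest at 15 Gy 1 week (20.7 ± 4.56 CPM; SD, n = 3 each). The ranges of groups next to each other in the order of means overlapped for both arms.

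**Figure D5:**
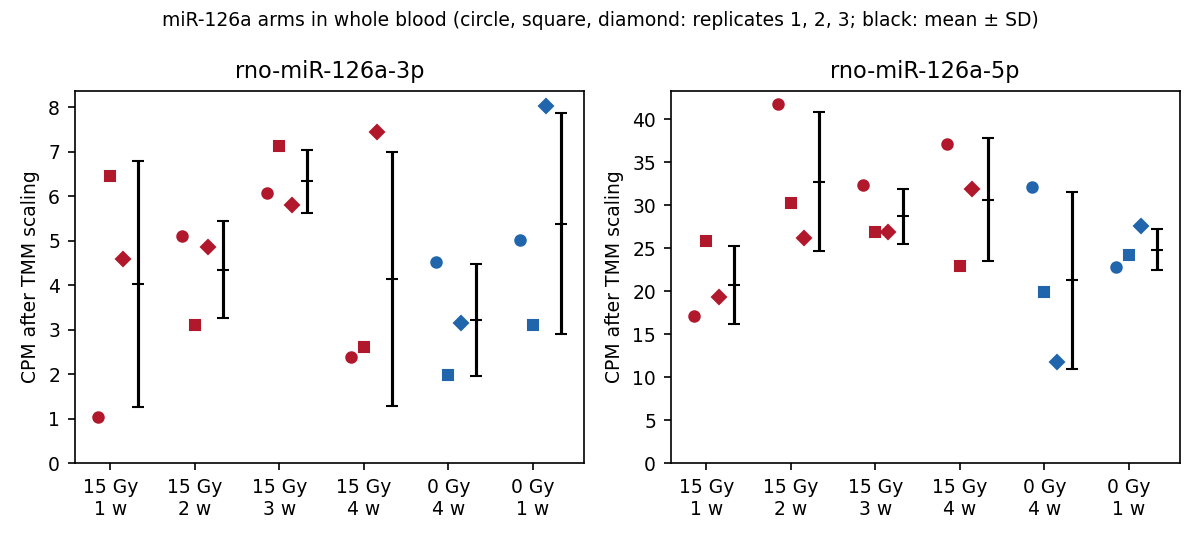
Levels of miR-126a-3p (left) and miR-126a-5p (right) in whole blood, in CPM after TMM scaling, by group (w, weeks; red, 15 Gy; blue, 0 Gy). Each symbol is a library and the black bars are mean ± SD (n = 3). The 3p values lie between 1.03 and 8.03 CPM and the 5p values between 11.7 and 41.8 CPM.

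Neither arm passed edgeR's test in any blood comparison, where it called 1 of 289 entries (0.346%) at 15 Gy 1 week, 1 (0.346%) at 15 Gy 2 weeks, 0 (0%) at 3 and at 4 weeks, 1 (0.346%) between the 0 Gy groups and 3 (1.04%) over all 15 Gy against all 0 Gy libraries. At 3 and at 4 weeks 14.9% and 7.61% of entries had an unadjusted p under 0.05, and DESeq2 called 1.42% at each. The largest change of 3p was 0.97 on the log2 scale at 15 Gy 3 weeks (SE 0.59, edgeR adjusted p 0.411), and that of 5p was 0.52 at 15 Gy 4 weeks (SE 0.34, edgeR adjusted p 0.775). With unscaled library totals the largest change of 5p was instead at 15 Gy 2 weeks, 1.60 (edgeR adjusted p 0.128), where the median of all entries was 1.17, and 4 weeks gave 1.02. Over all 15 Gy against all 0 Gy libraries 3p changed by 0.14 (SE 0.37, edgeR adjusted p 0.889) and 5p by 0.27 (SE 0.21, edgeR adjusted p 0.519). The 95% interval of the latest 3p comparison, at 4 weeks, ran from -1.06 to 1.56.

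The ratio of 5p to 3p in blood ran from 3.43 to 16.5, with few 3p counts behind it. At 15 Gy 1 week it was 16.5, 4 and 4.20, at 2 weeks 8.18, 9.75 and 5.40, at 3 weeks 5.33, 3.76 and 4.64, and at 4 weeks 15.6, 8.82 and 4.29, against 7.13, 10 and 3.71 at 0 Gy 4 weeks and 4.55, 7.80 and 3.43 at 0 Gy 1 week. The highest ratio rests on 33 counts of 5p and 2 of 3p. By exact permutation tests (two-sided) no difference of the log2 ratio from its control passed at any week (p 0.7, 0.2, 0.4 and 0.6 in the order of weeks, smallest possible 0.1), nor over all libraries (2.63 ± 0.709 at 15 Gy, n = 12, and 2.41 ± 0.600 at 0 Gy, n = 6, exact p 0.511).

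Lung and blood differed far more than doses or weeks. In unirradiated rats miR-126a-3p averaged 6731 ± 3941 CPM in lung and 46.5 ± 28.5 CPM in blood, and miR-126a-5p 12101 ± 6469 CPM in lung and 240.8 ± 88.6 CPM in blood (SD, n = 6 each), when miR-486-5p was left out of the library totals. By edgeR over all libraries of both tissues the log2 difference was 8.04 for 3p (SE 0.50, adjusted p 3.1e-13) and 6.48 for 5p (SE 0.38, adjusted p 1.4e-13). Of 576 entries, 432 (75%) passed in either direction and 286 (49.7%) were higher in lung. By size of the difference 3p ranked 10 and 5p 41 among 279 known rat miRNAs. The size of the tissue difference was not stable. Leaving out any 1 of the 12 libraries at 0 Gy gave 6.02 to 7.95 for 3p and 4.54 to 6.33 for 5p, all below the values from all libraries, and the cause was not tested. Unscaled totals gave 10.84 and 9.29.

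Whether the response to 15 Gy differed between tissues was tested with an interaction term, a choice made after the data were seen. Over all 15 Gy against all 0 Gy libraries the lung response was below the blood response by a log2 difference of -0.86 for 3p (SE 0.48, edgeR adjusted p 0.514) and -0.53 for 5p (SE 0.37, edgeR adjusted p 0.644). Among the single weeks and the 0 Gy groups the difference was largest for 3p at 3 weeks, -1.60 (SE 0.77, edgeR adjusted p 0.426), and none passed the threshold.

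The arms also differed in how far lung exceeded blood. The log2 ratio of 5p to 3p at 0 Gy was 0.943 ± 0.379 in lung and 2.41 ± 0.600 in blood (SD, n = 6 each), a difference of -1.46 with an exact permutation p of 0.00216 (two-sided), the smallest that 6 against 6 libraries allow. The permutation took no account of week, nor of any rats that lung and blood libraries may share. All 6 lung libraries (1.35 to 2.61) lay below all 6 blood libraries (3.43 to 10). This comparison uses counts of both arms within each library and does not depend on the scaling of tissues, but the blood ratio rests on 42 counts of 3p and 236 of 5p in all.

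Of 12 other miRNAs known from endothelial cells, all were tested in lung and 10 in blood, and 0 passed edgeR's test in any comparison of dose or week, with 0 to 2 at an unadjusted p under 0.05 in each. In blood 2 of 10 reached it at 15 Gy 1 week and between the 0 Gy groups, beside 6.23% and 4.15% of all entries. The other blood comparisons had at most 1. Shares of all blood entries were 11.8% at 2 weeks and 16.3% over all libraries, and the remaining shares are given above. In lung at 15 Gy 1 week, 7 of the 12 had positive and 5 negative log2 fold changes with a median of 0.05, beside 0.15 over all 499 entries, and none had an unadjusted p under 0.05. At 15 Gy 4 weeks the median was 0.24, beside -0.18 over all entries, with 1 higher and 1 lower at an unadjusted p under 0.05. These were miR-100-5p (log2 fold change 1.81, SE 0.77, edgeR adjusted p 0.453) and miR-92a-3p (-0.91, SE 0.35, edgeR adjusted p 0.453).

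Between tissues the same list was uneven. At 0 Gy, miR-10a-5p (log2 difference 7.04) and miR-100-5p (6.73) were higher in lung by about as much as the miR-126a arms, and miR-222-3p (4.18), miR-24-3p (3.85) and miR-221-3p (2.28) by less. miR-92a-3p was lower in lung (-3.74), and miR-27b-3p (-0.32) and miR-181b-5p (-0.35) did not pass the test (edgeR adjusted p 0.249 and 0.191). In all, 9 of the 12 were higher in lung and 1 was lower, beside 49.7% of all entries higher in lung and 75% called in either direction.

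Over the 18 lung libraries the known miRNAs most like miR-126a-3p, by Pearson's r of log2 CPM among 240 candidates (median r 0.190), were miR-29a-3p (0.859), miR-26a-5p (0.781), miR-450a-5p (0.778), miR-497-5p (0.747) and miR-195-5p (0.722). Those most like miR-126a-5p (median r 0.229) were miR-322-5p (0.721), miR-450a-5p (0.713), miR-879-5p (0.709), miR-497-5p (0.699) and miR-30e-5p (0.687). miR-450a-5p and miR-497-5p stood on both lists, but without the libraries of very low depth miR-450a-5p had rank 14 for 3p and miR-497-5p rank 13 for 5p. Of the entries listed as new, those at chr8:123981613-123981719 and chr10:57073806-57073948 (build rn4) were among the 3 most like each arm, with r of 0.804 and 0.748 for 3p and 0.648 and 0.714 for 5p. Without the libraries of very low depth the entry on chromosome 8 had rank 4 for 3p and 8 for 5p, and that on chromosome 10 rank 3 for 3p and 4 for 5p. These correlations are descriptions over libraries that share their depth and scaling, and with those libraries left out miR-29a-3p had rank 1 for 3p and miR-322-5p rank 7 for 5p.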

How the data were processed

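The authors trimmed the small RNA reads and mapped them to the rat genome (Trim Galore 0.2.5, Bowtie 1.1.1 and build rn4 per the labels) and assigned them to miRBase 19 and to new miRNAs with miRanalyzer. The deposited values are raw read counts per miRNA. Groups follow the labels.

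Counts were tested per tissue with edgeR 4.0.16 (TMM, filterByExpr, quasi-likelihood, Benjamini-Hochberg, adjusted p threshold 0.05) in R 4.3.3, with 1 and 2 weeks set against 0 Gy 1 week and 3 and 4 weeks against 0 Gy 4 weeks. The arm ratio, log2((5p + 0.5)/(3p + 0.5)), was tested with limma 3.58.1 over pairs with a mean count of at least 10 per arm in lung, and by exact permutation in blood, where miR-126a was below that minimum. Log2 CPM used a prior count of 1. DESeq2 1.42.0, other scalings, filters and controls, a replicate block and left-out libraries were alternatives. Two-sided tests were used. Scripts were tested on simulated data. Library depth (8132 to 3807051 counts) limits the precision. The coordinates of mature miRNAs are those of GRCr8. Named miRNAs are the members, 12 endothelial miRNAs, marker lists of other cell types, and the 5 known and 3 new entries most like each arm. miR-126b was added for its position, and 3 other arm pairs after their values were seen. Members and lists were chosen with earlier results of these data known.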

Additional observations from a re-analysis of the deposited data

How the results depend on the processing

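No alternative moved a result across its threshold. On the log2 scale, signs turned in these cases. For miR-126a-5p in lung at 15 Gy 3 weeks the value became 0.018 with DESeq2, 0.015 with RLE size factors, 0.030 with library totals, 0.063 against the other 0 Gy group and 0.10 without the lung libraries of very low depth. For miR-126a-5p in lung at 0 Gy 4 weeks against 1 week it became -0.0093 with DESeq2, -0.0058 with RLE size factors, -0.31 with library totals and -0.24 without those libraries. For miR-126a-5p in lung at 15 Gy 2 weeks it became -0.14 with library totals and -0.22 without those libraries. Against the other 0 Gy group, miR-126a-3p became 0.34 in lung at 2 weeks, and 0.29, 0.43 and -0.45 in blood at 1, 2 and 4 weeks, and the arm ratio became -0.26 in lung at 2 weeks and -0.032 in blood at 1 week. Library totals gave 0.95 for miR-126a-3p in blood at 15 Gy 2 weeks and 0.060 for miR-126a-5p in blood between the 0 Gy groups. Causes were not tested. With library totals the median log2 fold change of all blood entries was 1.17 at 2 weeks, and lung medians were -0.38 to 0.088, against -0.18 to 0.15 as reported. Over all lung entries at 15 Gy 1 week edgeR called 0 and DESeq2 6. Leaving out single libraries gave, for miR-126a-5p in lung, -0.73 to 0.033 at 15 Gy 1 week, -0.26 to 0.43 at 15 Gy 2 weeks, -0.54 to 0.32 at 0 Gy 4 weeks against 1 week, -0.27 to 0.27 for all 15 Gy against all 0 Gy, -0.39 to 0.55 at 15 Gy 3 weeks and -0.34 to 0.59 at 15 Gy 4 weeks. miR-126a-3p in lung had -0.56 to 0.47 at 15 Gy 3 weeks and -0.74 to 0.35 at 15 Gy 4 weeks. The arm ratio in lung had -0.034 to 0.53 at 15 Gy 3 weeks. The arm ratio in blood had -0.27 to 0.63 at 15 Gy 1 week and -0.029 to 0.88 at 15 Gy 4 weeks. miR-126a-3p in blood had -0.63 to 0.10 at 15 Gy 2 weeks, -0.10 to 0.30 for all 15 Gy against all 0 Gy and -0.40 to 0.56 at 15 Gy 4 weeks. miR-126a-5p in blood had -0.62 to 0.080 at 0 Gy 4 weeks against 1 week. The highest values of both arms at 15 Gy 3 and 4 weeks in lung came without 0 Gy 4 week replicate 1. Correlations of deviations of same-numbered lung libraries were -0.193 to 0.361, with a median of 0.061, beside -0.038 for different numbers. In blood they were -0.242 to 0.420, with a median of 0.047, beside -0.009. These values do not decide whether replicate numbers pair the libraries. With the replicate block no call changed, with miR-126a-3p in lung at 15 Gy 1 week at -0.98 and the arm ratio at 0.87. Depth limits the 3p arm in blood (2 to 21 counts a library) and both arms in the 2 lung libraries of very low depth.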
